A study of Rattus norvegicus with 39 samples.

Results

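Sperm small RNA from rats given the highest dose of ethylene glycol monomethyl ether (EGME) was compared with sperm small RNA from vehicle controls. The 20 libraries compared, of 39 in the series, were chosen by their labelled dose group, with no measured value involved. EGME75 comprised 10 libraries from males gavaged with EGME at 75 mg/kg/d, and EGME0 comprised 10 libraries from males gavaged with the water vehicle (0 mg/kg/d). All were wild-type Fischer males, 11 to 12 weeks old per the labels, dosed for 5 days and then left undosed for 5 weeks before spermatozoa were taken from the cauda epididymis. The labels number each library once and do not say that each came from a separate male, so p-values measure the spread between these libraries, which may be technical in part. The remaining 19 libraries, from males given 50 or 60 mg/kg/d, entered the statistical fits and are not described.

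EGME is a glycol ether solvent whose metabolite, methoxyacetic acid, kills meiotic spermatocytes. Mature sperm are nearly silent in transcription and carry a small RNA load in which fragments of transfer RNA (tRNA) dominate. MicroRNAs (miRNAs), ribosomal RNA (rRNA) fragments and piRNAs, the germline RNAs that guard against transposons, make up much of the rest. A miRNA recognises its targets mainly through its seed, a short stretch near the 5′ end, and members of a miRNA family share a seed. Sperm of the cauda can be collected with other cells of the epididymis and its vessels, so miRNAs typical of epithelium, blood and muscle were followed beside the germ cell miRNAs.

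Each library was described by 4 deposited count tables, covering mature miRNAs, genes for tRNA, noncoding transcripts from Ensembl (called the ncRNA table here) and entries of RNAcentral, a collection of noncoding sequences. The 4 tables together held 714467 to 14442713 counts per library at EGME0 and 244869 to 17106499 at EGME75. Mature miRNAs held few of these, with 1098 to 38208 counts per library at EGME0 and 139 to 8633 at EGME75. EGME75 replicate 24 held the 139 miRNA counts and EGME0 replicate 33 the 1098. A miRNA listed at 0 in such a library was below detection at that depth.

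The mature sequences below, from RefSeq (GRCr8), belong to the miRNAs on which the comparison turned, with the seed (bases 2 to 8) in capitals. The first 4, of the miR-17/92 and miR-106b/25 clusters, and the next 2, the 3p arms of miR-34b and miR-34c, share a seed within each set and were all lower at EGME75.
miR-17-5p: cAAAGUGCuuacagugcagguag
miR-20a-5p: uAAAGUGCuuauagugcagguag
miR-93-5p: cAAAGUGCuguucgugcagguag
miR-106b-5p: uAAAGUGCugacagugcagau
miR-34b-3p: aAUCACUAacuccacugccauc
miR-34c-3p: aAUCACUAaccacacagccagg
The next 4 share the seed of the miR-34/449 family. The miR-34c-5p and miR-449a-5p values were lower, while miR-34b-5p and miR-34a-5p did not pass the test.
miR-34b-5p: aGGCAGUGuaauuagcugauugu
miR-34c-5p: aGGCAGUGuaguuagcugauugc
miR-449a-5p: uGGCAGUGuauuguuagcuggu
miR-34a-5p: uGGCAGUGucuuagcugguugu
Another pair lay below the control median in 10 of 10 EGME75 libraries, and each has a seed that no other tested miRNA with a sequence shares.
miR-204-5p: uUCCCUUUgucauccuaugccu
miR-7a-5p: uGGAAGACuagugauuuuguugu
The last 5 were higher at EGME75.
miR-221-3p: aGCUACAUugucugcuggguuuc
miR-205: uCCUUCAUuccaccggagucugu
miR-10a-5p: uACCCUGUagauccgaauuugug
miR-24-3p: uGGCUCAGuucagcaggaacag
miR-451-5p: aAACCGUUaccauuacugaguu
Sequences were found for 96 of the 105 miRNAs tested, which held 70 seeds. Of the 14 seeds shared by at least 2 tested miRNAs, none held miRNAs called in both directions (0 of 14). Most of these seeds held at most 1 called miRNA, so they could not have shown calls in both directions. The count therefore does not show that miRNAs with the same seed moved together. All 4 miRNAs with the seed AAAGUGC and both with AUCACUA were lower, whereas 1 of the 8 let-7 miRNAs that share GAGGUAG was called.

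The share of counts differed between the groups for 3 of the 4 tables. The miRNA table made up 0.108% to 0.312% of the counts of the control libraries, with a median of 0.156%. At EGME75 it made up 0.00978% to 0.197%, with a median of 0.0432%. Only EGME75 replicate 39, at 0.197%, reached into the control range. The mean fell from 0.178% ± 0.0731 (SD, n = 10) to 0.0554% ± 0.0522 (SD, n = 10; two-sided permutation test, adjusted p = 0.00045 over 9 values).

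The ncRNA table fell from a median of 10.7% (7.36% to 23.9%) to 3.79% (1.43% to 6.75%) of the counts, with no overlap between the groups (permutation test, adjusted p = 0.000135). The RNAcentral table rose from a median of 21.9% (12.3% to 36.8%) to 39.8% (25.7% to 63.9%), and all 10 EGME75 libraries lay above the control median (permutation test, adjusted p = 0.00045). The tRNA table had means of 65.2% ± 9.99 (SD, n = 10) at EGME0 and 56.2% ± 8.81 (SD, n = 10) at EGME75, a difference that missed the threshold (permutation test, adjusted p = 0.0508). With the RNAcentral table left out of the sum, the tRNA share turned to 9.71 percentage points higher at EGME75 and passed (permutation test, adjusted p = 0.00012). These are shares of count assignments, since 1 read may stand in several tables. In bulk samples, fewer cells of a type and less RNA per cell cannot be told apart.

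The germ cell identity of the samples showed in their miRNAs at both doses, at different strengths. The germ cell list (the 5p and 3p miRNAs of miR-34b and of miR-34c, plus miR-449a-5p and miR-449c-5p) held 19.8% to 33.1% of the miRNA counts at EGME0, with a median of 26.3%. It held 6.48% to 22.1%, with a median of 13.3%, at EGME75. Every EGME75 library lay below the control median. The mean fell from 26.3% ± 4.35 (SD, n = 10) to 13.9% ± 4.60 (SD, n = 10; permutation test, adjusted p = 0.000135), and in 6 of 6 pairs of libraries run on the same sequencing chip. This list and those of other cell types were chosen with earlier results of these data known. The p-values of their shares are therefore not independent of the data.

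The summed share of the blood, epithelial, and muscle and stroma lists moved the other way. It ran from 2.23% to 4.51% of the miRNA counts at EGME0, with a median of 3.06%, and from 4.09% to 15.6%, with a median of 9.71%, at EGME75. The groups overlapped only between 4.09% and 4.51%. The mean rose from 3.13% ± 0.718 (SD, n = 10) to 9.85% ± 3.50 (SD, n = 10; permutation test, adjusted p = 0.000135), again in 6 of 6 chip pairs. The blood, epithelial, and muscle and stroma lists named 9, 8 and 10 miRNAs, of which 7, 7 and 10 were in the table. The erythroid miRNA miR-144-3p was at 0 in all 20 libraries, and the striated muscle miRNAs miR-1-3p, miR-133b-3p and miR-206-3p were at 0 in all EGME75 libraries and in all but 1 control each. The striated muscle miRNA miR-133a-3p had a count in 3 EGME75 libraries and 2 controls, but its summed counts were 8 at EGME75 and 173 in the controls, from unequal depth. The part of these cell type miRNAs in the results that follow was not tested.

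**Figure D1:**
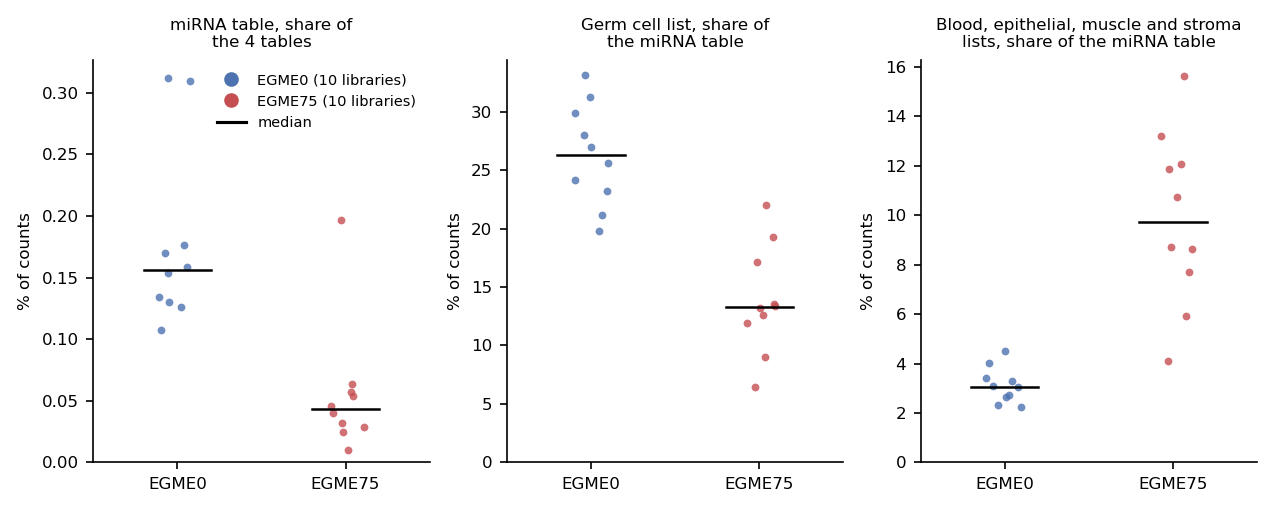
Share of counts in each library (points, % of counts on the vertical axes; 10 libraries per group; bars are medians) for the miRNA table within the 4 tables, the germ cell list within the miRNA table, and the blood, epithelial, and muscle and stroma lists within the miRNA table. The germ cell median was 26.3% at EGME0 and 13.3% at EGME75, and the other cell types' median was 3.06% and 9.71%.

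Of the 105 miRNAs that passed the filter on low counts, 45 (42.9%) differed between EGME75 and EGME0 at an adjusted p under 0.05. These were 23 higher (21.9%) and 22 lower (21%). Changes are log2 fold changes ± standard error from edgeR's quasi-likelihood test, and levels are counts-per-million (CPM) of the miRNA table after scaling by the trimmed mean of M-values (TMM). The scaling sets the zero of these changes. The median change over all 105 miRNAs was -0.10 under TMM, 0.50 with library totals alone and -1.13 with the sum of the 4 tables as library size, under which the calls became 3 higher and 39 lower. With library totals alone they were 33 higher and 10 lower. Changes are therefore relative to the other miRNAs. The miRNA depth differed between the groups, with medians of 15324.5 counts at EGME0 and 3201.5 at EGME75. With the log10 miRNA total as a covariate the calls were 20 higher and 10 lower. For 3 miRNAs, or 2.86%, every EGME75 library lay below every control (miR-204-5p, miR-34c-3p and miR-34b-3p), and for none, 0%, did every library lie above.

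The germ cell list holds miRNAs of miR-34b, miR-34c and miR-449, which are abundant from meiotic spermatocytes onward. Of the 5 germ cell miRNAs tested, 4 fell and none rose, where 21% of all 105 miRNAs fell. The median change of the list was -1.05. The most abundant, miR-34b-3p, stood at 102900 to 293900 CPM in the controls, with a median of 167300. It stood at 23450 to 81650 CPM, with a median of 53280, at EGME75. The groups did not overlap. The change was -1.76 ± 0.33 (adjusted p = 2.16e-05).

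The level of miR-34c-3p ran from 19630 to 72900 CPM in the controls, with a median of 49760, and from 0 to 17730 CPM, with a median of 8298, at EGME75. The groups did not overlap, and the change was -2.41 ± 0.39 (adjusted p = 1.93e-06). Its opposite arm, miR-34c-5p, had medians of 62140 and 29080 CPM in overlapping groups and fell by 1.02 ± 0.33 (adjusted p = 0.0104). The level of miR-449a-5p, of the same seed family, had a median of 38990 CPM in the controls and 18660 CPM at EGME75, and fell by 1.05 ± 0.32 (adjusted p = 0.00583). The remaining miRNA of the list tested, miR-34b-5p, had a change of -0.45 and did not pass (adjusted p = 0.296). Of the same seed family but not on the list, miR-34a-5p had a change of 1.16 ± 0.60 that did not pass (adjusted p = 0.109), and lay above the control median in 8 of 10 EGME75 libraries. With library totals alone 2 of the 5 passed, both lower, and miR-34b-5p turned to 0.16. With the log10 miRNA total as a covariate miR-34c-5p and miR-449a-5p lost the call, both still negative.

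The arms of miR-34c did not move by the same amount. The log2 ratio of 3p to 5p counts of miR-34c had a mean of -0.33 ± 0.94 (SD, n = 10) at EGME0 and -1.74 ± 0.9995 (SD, n = 10) at EGME75 (permutation test, adjusted p = 0.00927 over 3 ratios). It was lower than the control median in 9 of 10 EGME75 libraries, but in only 4 of 6 chip pairs. For miR-34b the ratio was 3.39 ± 0.90 (SD, n = 10) and 2.57 ± 1.497 (SD, n = 10), which did not pass (permutation test, adjusted p = 0.153). Without EGME75 replicate 31 the miR-34b difference was -1.201 and passed (exact permutation test, adjusted p = 0.0123). Of the 8 hairpins with both arms tested, 4 had 1 arm called and the other not, where 42.9% of all 105 miRNAs were called. These were miR-34b, with the 3p arm lower, miR-743a and miR-743b, with the 5p arm lower, and miR-871, with the 3p arm higher. A call in 1 arm alone does not show that the arms differed, and the arms of miR-743a, miR-743b and miR-871 were not compared with each other.

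The miR-17/92 and miR-106b/25 clusters, polycistrons that act in proliferating and spermatogenic cells, were lower as a group. Of 10 tested members 7 fell and none rose, where 21% of all 105 miRNAs fell. The median change of the clusters was -1.38. The abundant miR-20a-5p stood at 5608 to 38940 CPM in the controls, with a median of 24380, and at 0 to 18500 CPM, with a median of 5954, at EGME75. The EGME75 libraries lay below the control median in 10 of 10 cases, and the change was -1.59 ± 0.36 (adjusted p = 0.00032).

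Among the other members with that seed, miR-17-5p fell from a median of 6314 to 1036 CPM (-1.91 ± 0.49, adjusted p = 0.00134). The change in miR-93-5p, from a median of 15240 to 3881 CPM, was -1.54 ± 0.39 (adjusted p = 0.000909). For miR-106b-5p the summed counts were 174 in the controls and 14 at EGME75, and the change was -1.97 ± 0.72 (adjusted p = 0.0204). It missed the threshold without EGME0 replicate 25 or EGME75 replicate 32 (-1.69 and -1.72). The other arm, miR-106b-3p, had the lowest change of the named miRNAs. Its level ran from 518 to 4177 CPM in the controls, and at EGME75 most libraries were at 0, with a highest value of 2055 CPM (-3.64 ± 0.83, adjusted p = 0.00032). Its summed counts were 233 and 6. The called members included miR-19b-3p (-1.06 ± 0.35, adjusted p = 0.0104) and miR-18a-5p (-1.22 ± 0.51, adjusted p = 0.045). The call on miR-18a-5p was lost on leaving out any 1 of 13 of the 20 libraries (-1.26 to -1.09). No call was made for miR-19a-3p, miR-92a-3p and miR-25-3p, with changes of -0.79, -0.41 and -0.42, though miR-19a-3p was called without EGME75 replicate 7 or 16 (-1.05 to -0.98). With library totals alone 2 of the 10 members turned positive, neither of them called. With the log10 miRNA total as a covariate miR-17-5p, miR-20a-5p, miR-18a-5p, miR-19b-3p and miR-106b-5p lost the call, all still negative, and miR-93-5p and miR-106b-3p kept it.

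The X-linked spermatogenic cluster, whose miRNAs are expressed in testis with little elsewhere, changed in a few members. Of 16 tested, 3 fell, 1 rose and 12 did not pass, with a median of -0.43, which turned to 0.13 with library totals alone. Over all 105 miRNAs 21% fell and 21.9% rose, so calls in either direction were no more frequent in this cluster. The most abundant called member, miR-741-3p, ran from 11220 to 41030 CPM in the controls, with a median of 33920, and from 0 to 21820 CPM, with a median of 14510, at EGME75. It was below the control median in 10 of 10 libraries (-1.16 ± 0.31, adjusted p = 0.00163). The 5p arms of miR-743a (-3.04 ± 0.80, adjusted p = 0.0015; summed counts 239 and 8; -4.60 without EGME75 replicate 16) and of miR-743b (-1.31 ± 0.46, adjusted p = 0.0158) were lower. The call on miR-743a-5p was lost on the 6 shared chips with the chip as a block. With the log10 miRNA total as a covariate miR-741-3p and miR-743b-5p lost the call. The 3p arm of miR-871 was higher (2.02 ± 0.61, adjusted p = 0.00551; summed counts 54 and 81 from unequal depth).

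Outside these lists, miR-204-5p and miR-7a-5p were lower. The level of miR-204-5p, a miRNA best known from the eye and other epithelia, ran from 3269 to 16820 CPM in the controls, with a median of 4587. It ran from 0 to 2430 CPM, with a median of 880, at EGME75, with no overlap (-2.50 ± 0.48, adjusted p = 2.6e-05). The level of miR-7a-5p ran from 16530 to 69290 CPM, with a median of 38250, and from 6449 to 25280 CPM, with a median of 10700 (-1.57 ± 0.33, adjusted p = 9.81e-05). Of the 5 miRNAs with the largest mean share, miR-34b-3p, miR-16-5p, miR-191a-5p, miR-19b-3p and miR-34c-5p, all 5 fell under TMM. With library totals alone miR-191a-5p, miR-19b-3p and miR-34c-5p lost the call, all 3 still negative. With the log10 miRNA total as a covariate miR-16-5p, miR-19b-3p and miR-34c-5p lost it, also still negative. The ubiquitous miR-16-5p went from a median of 130800 to 57020 CPM (-1.29 ± 0.31, adjusted p = 0.000613), and miR-191a-5p from 114200 to 58910 CPM (-1.11 ± 0.37, adjusted p = 0.0122).

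**Figure D2:**
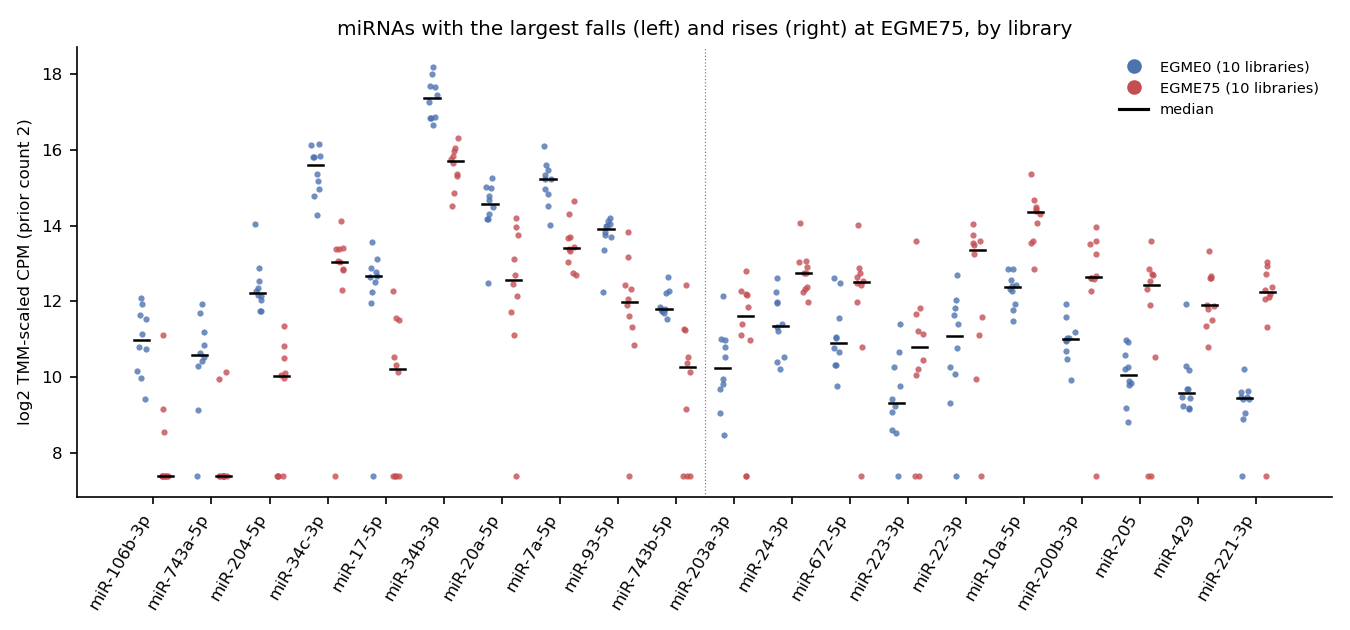
Level of the 10 miRNAs with the lowest and the 10 with the highest log2 fold changes past the threshold, among miRNAs averaging 10 counts or more over the 20 libraries (log2 TMM-scaled CPM with a prior count of 2 on the vertical axis; points are libraries, 10 per group; bars are medians). Called miRNAs with fewer counts, such as miR-200a-3p and miR-451-5p, are not shown. The groups of miR-204-5p, miR-34c-3p and miR-34b-3p do not overlap, and the points at the bottom edge are libraries with a count of 0.

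Rises were seen in miRNAs of several cell types. The level of miR-221-3p, a miRNA of proliferating and vascular cells, ran from 0 to 1034 CPM in the controls, with a median of 532, and from 0 to 8221 CPM, with a median of 4692, at EGME75. Only EGME75 replicate 24, at 0, fell below the control median (3.18 ± 0.51, adjusted p = 1.93e-06). The Hox cluster miRNA miR-10a-5p ran from 2725 to 7308 CPM, with a median of 5147, in the controls and from 7194 to 41680 CPM, with a median of 20750, at EGME75. All 10 libraries lay above the control median (1.99 ± 0.34, adjusted p = 3.45e-06). With the sum of the 4 tables as library size the changes were 2.14 for miR-221-3p, still called, and 1.30 for miR-10a-5p, not called.

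Epithelial miRNAs rose as a group. Of the 6 tested, 5 rose and none fell, where 21.9% of all 105 miRNAs rose. The median change of the list was 2.29, against -0.10 for all miRNAs. With the sum of the 4 tables as library size 1 of the 6 passed, and 2 turned negative. The miR-200 family keeps cells in the epithelial state. Its member miR-200b-3p ran from 814 to 3738 CPM, with a median of 1896, in the controls and from 0 to 15670 CPM, with a median of 6273, at EGME75 (2.14 ± 0.40, adjusted p = 1.69e-05). For miR-429 the range was 410 to 3738 CPM in the controls, with a median of 602, and 1612 to 10050 CPM, with a median of 3654, at EGME75 (2.52 ± 0.49, adjusted p = 2.69e-05). Each was higher than the control median in at least 9 of 10 EGME75 libraries.

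The low-count miR-200a-3p was found in 4 control and 8 EGME75 libraries, with 33 and 148 summed counts (3.51 ± 0.69, adjusted p = 3.36e-05). It may have passed the filter on low counts through libraries where it was high. The abundant member miR-200c-3p did not pass, at medians of 7464 and 7683 CPM (0.19 ± 0.32, adjusted p = 0.611). The keratinocyte and basal cell miRNA miR-205 had medians of 908 and 5395 CPM (2.43 ± 0.52, adjusted p = 0.000122), but was higher in only 3 of 6 chip pairs. The skin miRNA miR-203a-3p was called at 1.28 ± 0.53 (adjusted p = 0.0426), a call lost on leaving out any 1 of 11 libraries (1.07 to 1.27). With the sum of the 4 tables as library size, miR-203a-3p turned to -0.00285.

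All 3 blood cell miRNAs tested rose, with a median of 2.33, where 21.9% of all 105 miRNAs rose. With the sum of the 4 tables as library size all 3 stayed positive and 0 passed. Other members of the list did not pass the filter on low counts. Among them, miR-142-5p had 43 summed counts in 7 control libraries and 7 in 3 EGME75 libraries. The summed counts of miR-142-3p were 5 and 5, and those of miR-144-5p 4 and 0, from unequal depth. The 3 tested members had low control levels and may have passed the filter through libraries where they were high. The count of 3 of 3 is therefore not a test of the list. The erythroid miR-451-5p ran from 0 to 887 CPM, with a median of 370, in the controls and from 0 to 20960 CPM, with a median of 2056, at EGME75 (3.26 ± 0.72, adjusted p = 0.000263). The lymphocyte miRNA miR-150-5p had medians of 290.4 and 2465 CPM (2.33 ± 0.62, adjusted p = 0.00167). The myeloid miRNA miR-223-3p had medians of 477 and 1665 CPM (1.77 ± 0.60, adjusted p = 0.0135), and was not called without EGME75 replicate 7 (1.27, adjusted p = 0.073). Where 42.9% of all 105 miRNAs were called, 1 of 4 tested passed in the muscle and stroma list. This was miR-145-5p of smooth muscle (0.94 ± 0.33, adjusted p = 0.014), which was not called without EGME75 replicate 32 (0.74) and turned to -0.12 with the sum of the 4 tables as library size. The imprinted Dlk1-Dio3 cluster had 34 miRNAs listed and none that passed the filter.

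Other rises included miR-22-3p (median 2070 to 10430 CPM, 1.80 ± 0.47, adjusted p = 0.00163) and miR-672-5p (1755 to 5703 CPM, 1.34 ± 0.49, adjusted p = 0.0204). The latter was not called without EGME0 replicate 2, EGME75 replicate 23 or EGME75 replicate 39 (1.08 to 1.21). The level of miR-24-3p went from a median of 2474 to 6715 CPM, with 10 of 10 EGME75 libraries above the control median (1.34 ± 0.39, adjusted p = 0.0042). Its neighbours in 1 polycistron, named after their values were seen, were also higher: miR-23a-3p by 1.22 ± 0.31 (adjusted p = 0.00106) and miR-27a-3p by 2.72 ± 0.67 (adjusted p = 0.000816). With the sum of the 4 tables as library size none of the 3 passed, and miR-23a-3p turned to -0.02. Another copy of miR-24-3p lies beside miR-23b-3p and miR-27b-3p, neither of which was called.

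The let-7 family, miRNAs of differentiated cells, was mixed. Where 42.9% of all 105 miRNAs were called, 1 of 8 tested members was, let-7c-5p. It ran from 3517 to 20560 CPM, with a median of 10240, in the controls. At EGME75 it ran from 10500 to 39580 CPM, with a median of 25030 (1.26 ± 0.36, adjusted p = 0.00386). The median of the family was 0.00, or 0.58 with library totals alone and -0.95 with the sum of the 4 tables. None of the 4 tested miR-30 miRNAs passed, with a median of -0.26. Among the 4 tested miRNAs linked to testis toxicity, miR-449a-5p was lower, as above, and miR-320-3p higher (1.81 ± 0.62, adjusted p = 0.0134), the latter not without EGME75 replicate 23 (1.44, adjusted p = 0.053). The remaining members, miR-92a-3p and miR-202-5p, had changes of -0.41 and 1.41 that did not pass.

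**Figure D3:**
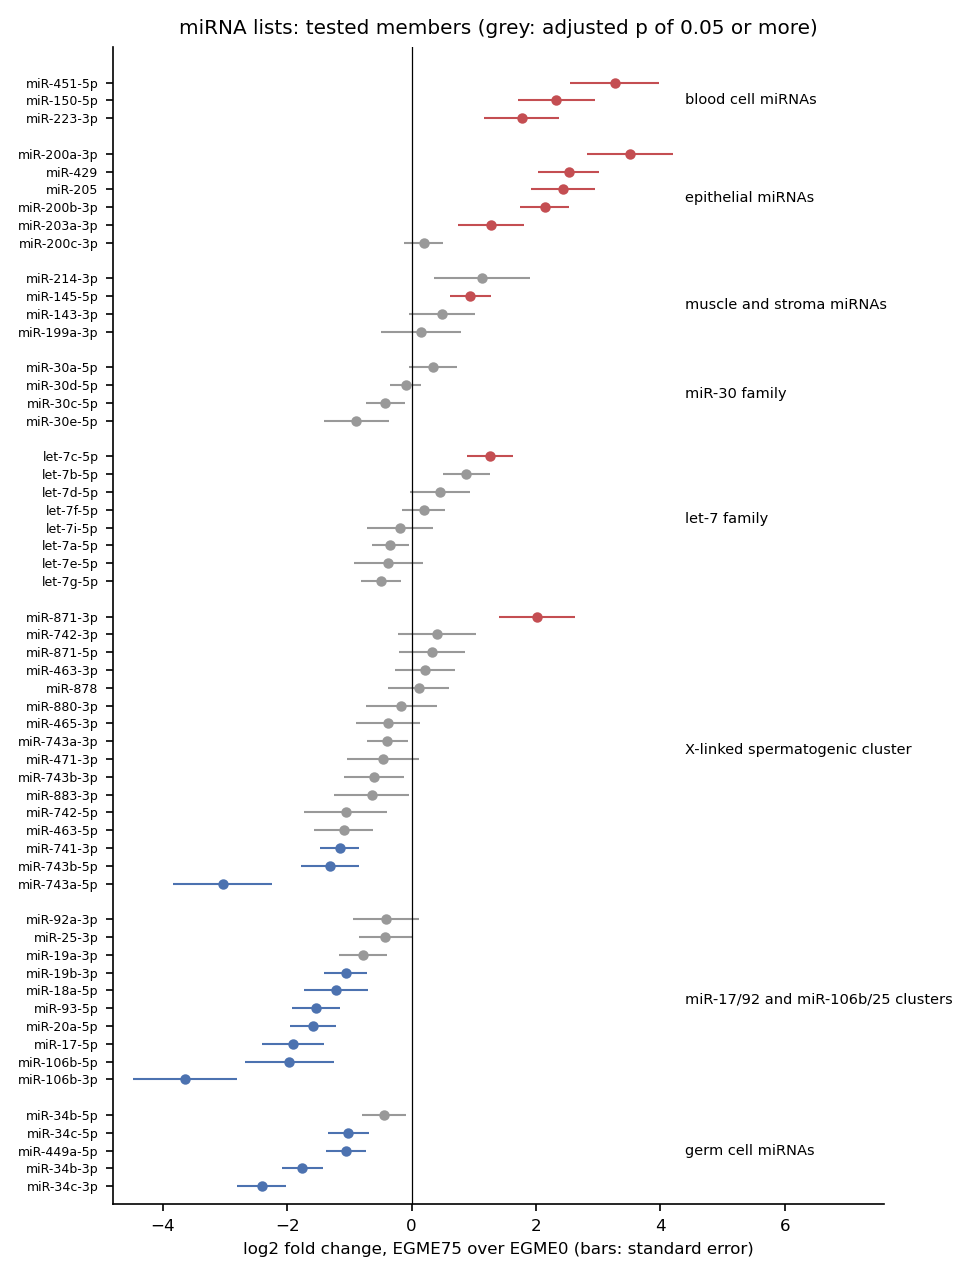
Log2 fold change of EGME75 over EGME0 (horizontal axis; bars are standard errors) for every tested member of 8 miRNA lists, in colour where the adjusted p was under 0.05. In the germ cell list 4 of 5 members fell and in the epithelial list 5 of 6 rose, under TMM scaling; with the sum of the 4 tables as library size the blood and epithelial medians were 1.25 and 1.38, and miR-145-5p and miR-203a-3p turned negative.

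More miRNAs were detected at EGME75 when depth was matched. At a matched depth of 500 miRNA counts, the expected number of miRNAs detected was 64.0 to 82.8 in the controls, with a median of 73.3. It was 64.1 to 95.7, with a median of 84.7, at EGME75. The mean rose from 72.8 ± 4.97 (SD, n = 10) to 83.6 ± 9.20 (SD, n = 9, EGME75 replicate 24 being too shallow; exact permutation test, adjusted p = 0.00785).

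Transfer RNA counts changed in composition. Summed by anticodon, 27 of 47 (57.4%) anticodons differed, 14 higher (29.8%) and 13 lower (27.7%). For 2 (4.26%) every EGME75 library lay above every control, and for 4 (8.51%) every one lay below. The anticodon is the triplet that reads the codon, and genes of 1 anticodon are often so alike that their reads cannot be told apart. The median change over all anticodons was 0.07 under TMM scaling.

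The largest change by counts was in the serine tRNA SerGCT. It held 161700 to 358300 CPM of the tRNA counts in the controls, with a median of 255000, and 22200 to 133200 CPM, with a median of 92920, at EGME75. The groups did not overlap (-1.47 ± 0.25, adjusted p = 2.07e-06). The other serine anticodons named were lower too, SerAGA from a median of 26420 to 11800 CPM (-1.27 ± 0.19, adjusted p = 2.36e-07) and SerTGA from 19100 to 8470 CPM (-1.204 ± 0.18, adjusted p = 2.62e-07). For both, the groups did not overlap.

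The leucine anticodons split. LeuTAA ran from 2271 to 6450 CPM in the controls and from 407 to 2452 CPM at EGME75 (-1.42 ± 0.23, adjusted p = 1.6e-06), and LeuCAA from 4857 to 15960 and from 806 to 5660 CPM (-1.42 ± 0.25, adjusted p = 4.2e-06), with some overlap in each. LeuAAG, among the 5 most abundant anticodons, had medians of 34230 and 50030 CPM and did not pass (0.49 ± 0.26, adjusted p = 0.097). The isoleucine tRNA IleAAT ran from 12020 to 21730 CPM in the controls and from 1978 to 9458 CPM at EGME75, with no overlap (-1.37 ± 0.20, adjusted p = 2.11e-07).

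ThrAGT rose most. It was rare, at 64.6 to 106 CPM in the controls, with a median of 82.3, and reached 200 to 1286 CPM, with a median of 402, at EGME75. The groups did not overlap (2.53 ± 0.30, adjusted p = 3.54e-09). ValAAC rose from a median of 10200 CPM (7110 to 11880) to 23420 CPM (15540 to 31790), also without overlap (1.201 ± 0.17, adjusted p = 2.11e-07). The initiator and elongator methionine tRNAs, counted together as MetCAT, rose from a median of 72380 to 127200 CPM (0.93 ± 0.20, adjusted p = 0.000122), or 0.57, still called, without EGME75 replicate 23. TyrGTA (1.02 ± 0.30, adjusted p = 0.00428) and GlnCTG (0.94 ± 0.25, adjusted p = 0.0015) were higher as well.

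The 9 anticodons known as sources of sperm tRNA fragments held 30.1% to 44.5% of the tRNA counts in the controls and 38.9% to 55.6% at EGME75. Of these 9, 6 were higher and none lower, where 29.8% of all 47 anticodons were higher and 27.7% lower. The median change of the 9 was 0.41, against 0.07 for all anticodons. LysCTT ran from 1453 to 7046 CPM, with a median of 2987, in the controls and from 5031 to 20220 CPM, with a median of 13720, at EGME75 (1.96 ± 0.30, adjusted p = 4.31e-07). GluCTC ran from 1705 to 9322 CPM, with a median of 3622, and from 7182 to 32880 CPM, with a median of 13070 (1.84 ± 0.35, adjusted p = 1.4e-05). All 10 EGME75 libraries lay above the control median for both.

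HisGTG was higher by 0.85 ± 0.17 (adjusted p = 3.61e-05). GlyCCC (0.41 ± 0.14, adjusted p = 0.00963) and AspGTC (0.39 ± 0.17, adjusted p = 0.0493) were called, but lost the call on leaving out any 1 of 15 and of 18 libraries (0.25 to 0.35 and 0.08 to 0.40). The most abundant source, GlyGCC, had medians of 255000 and 243900 CPM and a change of 0.03 ± 0.14 (adjusted p = 0.914). GluTTC and ValCAC did not pass either, at -0.05 ± 0.20 and 0.31 ± 0.16. GlyTCC, another of the most abundant, had medians of 58110 and 41500 CPM and missed the threshold (-0.38 ± 0.18, adjusted p = 0.069), but passed without any 1 of 17 libraries (-0.60 to -0.42). The evenness of the anticodons, as a Shannon index, had means of 2.62 ± 0.126 (SD, n = 10) and 2.73 ± 0.105 (SD, n = 10) and missed the threshold (permutation test, adjusted p = 0.0508).

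**Figure D4:**
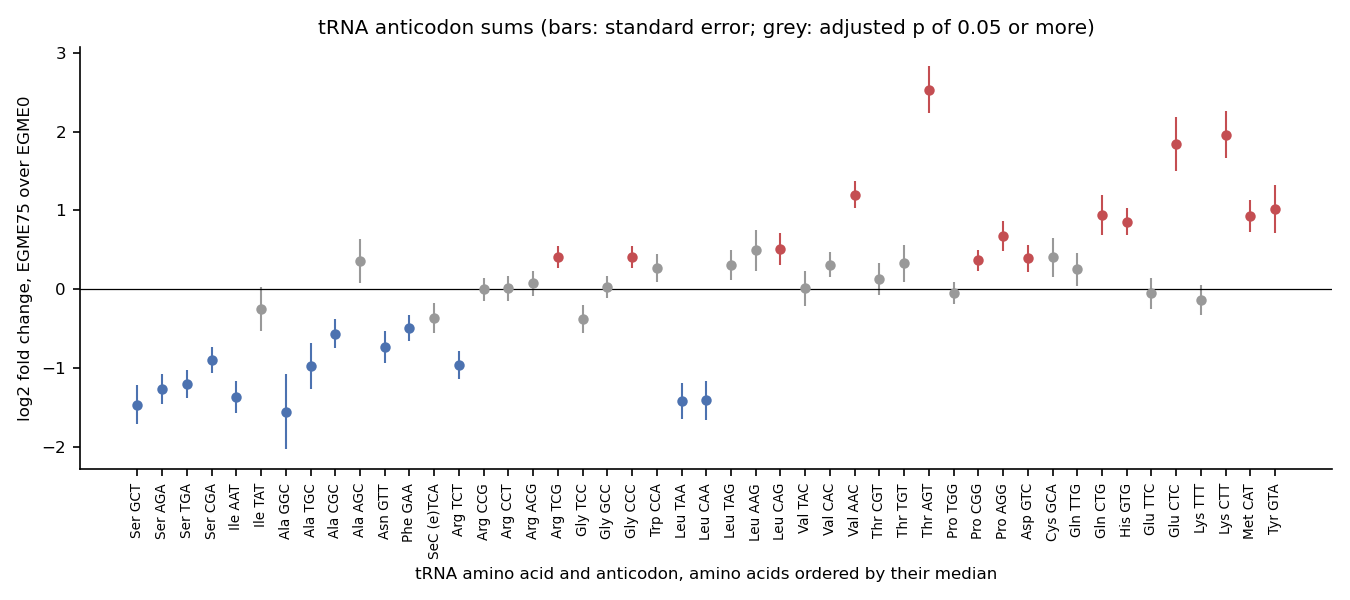
Log2 fold change of EGME75 over EGME0 (vertical axis; bars are standard errors) for the 47 anticodons tested, in colour where the adjusted p was under 0.05, with amino acids ordered by their median. The 4 serine anticodons lie at the low end, SerGCT at -1.47, and ThrAGT lies highest at 2.53.

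At the level of single tRNA genes, 202 of 338 (59.8%) differed, 101 higher (29.9%) and 101 lower (29.9%), where library totals alone gave 149 higher and 66 lower. For 27 genes (7.99%) every EGME75 library lay below every control, and for 10 (2.96%) every one lay above. Amino acids separated by direction. Of the 22 serine genes 21 were lower, 12 of them without overlap, and of the 13 isoleucine genes 10 were lower, 8 without overlap. All 7 phenylalanine genes were lower (median -0.64), though none passed with library totals alone or with the sum of the 4 tables as library size. All 12 histidine genes, which share 1 pattern of counts and so are 1 measurement, and all 8 tyrosine genes were higher, under each of these scalings too. Threonine genes were higher in 10 of 16 cases, lysine in 13 of 22 with 3 lower, and glutamate in 11 of 20. Many of these genes share counts and are not separate measurements. The distinct patterns of counts numbered 20 for serine, 8 for isoleucine, 3 for phenylalanine and 8 for tyrosine. They numbered 13 for threonine, 9 for lysine and 8 for glutamate.

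A single amino acid could hold genes that moved oppositely. A pair of cysteine GCA genes was at the extremes: chr4.trna1750-CysGCA went from a median of 14.7 CPM (11.0 to 29.1) to 87.7 CPM (43.7 to 118), with no overlap (2.36 ± 0.27, adjusted p = 2.49e-08). In contrast, chr4.trna7721-CysGCA went from a median of 38.2 CPM to 5.79 CPM (-2.44 ± 0.56, adjusted p = 0.000287). The other genes with the largest rises were chr16.trna1087-GluTTC (3.10 ± 0.51, adjusted p = 2.27e-06) and chr10.trna10836-ThrAGT (2.92 ± 0.36, adjusted p = 2.49e-08), whose counts 2 other rows shared. The other lowest were chr17.trna1626-SerGCT (-1.76 ± 0.26, adjusted p = 4.91e-07) and chr1.trna16829-LeuTAA (-1.69 ± 0.27, adjusted p = 1.07e-06).

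The balance between mitochondrial and other rRNA in the ncRNA table shifted, with mitochondrial rRNA the larger in both groups. In the ncRNA table the 2 mitochondrial rRNAs, ENSRNOT00000069133 and ENSRNOT00000040038, held 97.7% to 99.7% of the counts of the control libraries and 81.1% to 98.5% at EGME75. The mean fell from 99.2% ± 0.627 (SD, n = 10) to 93.8% ± 5.16 (SD, n = 10; permutation test, adjusted p = 0.000135). As unscaled CPM of the sum of the 4 tables (whole-library CPM), mitochondrial rRNA went from a median of 106700 (73300 to 237800) to 36330 (11610 to 66470), with no overlap (permutation test, adjusted p = 0.000165 over 11 class sums). Mitochondrial rRNA comes from the organelles that sperm keep in the midpiece.

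The rRNA class that is not mitochondrial moved the other way. It stood at 2.80 to 37.8 whole-library CPM, with a median of 18.3, in the controls and at 106 to 427, with a median of 266, at EGME75. The groups did not overlap, and the mean was 12.7-fold higher (permutation test, adjusted p = 0.000165). The log2 ratio of this class to mitochondrial rRNA, which needs no scaling between libraries, rose from -12.7 ± 0.970 (SD, n = 10) to -7.07 ± 1.17 (SD, n = 10; permutation test, adjusted p = 0.00012). It was higher in 6 of 6 chip pairs. The share of the other cell types' miRNAs rose in the same libraries, with the values given above, and its part in this result was not tested.

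In whole-library CPM, small nuclear RNAs of the spliceosome rose from a mean of 37.9 ± 24.4 (SD, n = 10) to 78.8 ± 23.6 (SD, n = 10; permutation test, adjusted p = 0.0026). Long intergenic noncoding RNAs rose from a median of 25.1 (6.89 to 181) to 201 (139.9 to 912; permutation test, adjusted p = 0.000165). The class called misc_RNA had means of 702 ± 484 (SD, n = 10) and 927 ± 213 (SD, n = 10), which did not pass (permutation test, adjusted p = 0.224). Without EGME0 replicate 26, the highest control, its difference was 360 whole-library CPM and passed (exact permutation test, adjusted p = 0.00497).

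Transcript by transcript, 126 of 174 (72.4%) differed, 60 higher (34.5%) and 66 lower (37.9%). For 4 (2.3%) all EGME75 libraries lay above all controls and for 3 (1.72%) all lay below. This split rested on the scaling, since the mitochondrial rRNAs filled the table: the calls were 90 higher and 13 lower with the relative log expression factors of DESeq2, 90 and 9 with DESeq2 itself, 168 and 1 with library totals alone, and 112 and 3 with the sum of the 4 tables. The median change over all transcripts was 0.59 under TMM, then 1.85, 1.80, 4.67 and 2.70 in the order just given. Leaving out EGME75 replicate 7 or EGME75 replicate 32 gave 87 higher and 6 lower, and 85 and 7. Relative to the median of all transcripts, the 2 mitochondrial rRNAs differed by -4.74 to -4.42 over 4 scalings and the 48 other rRNAs by 0.56 to 0.66. The 26 long intergenic RNAs differed by 1.65 to 1.74. The direction of the small nuclear RNAs depended on the scaling: of 48 tested, 32 were lower and 0 higher under TMM, and 21 were higher and 0 lower with the sum of the 4 tables. The misc_RNA transcripts did so too, with 1 higher and 25 lower of 27 under TMM, and 4 and 0 with that sum. Transcripts sharing counts are not separate measurements. Sets of 11 and of 9 small nuclear RNAs, and a set of 7 of the other rRNAs, each shared 1 pattern of counts.

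The antisense transcripts ENSRNOT00000092862 and ENSRNOT00000092884 rose most among those named, and have the same summed counts and range of levels, so they are given as 1 measurement. The summed counts were 3 in the controls and 378 at EGME75 (4.83 ± 0.77, adjusted p = 4.49e-06). All 3 control counts were in EGME0 replicate 17, without which the change was 8.03. The lowest, apart from the mitochondrial rRNAs, were ENSRNOT00000077967 and ENSRNOT00000089775 (-2.86 ± 0.87 and -2.71 ± 0.86, adjusted p = 0.00558 and 0.00702). With library totals alone they turned to 0.80 and 0.95, and neither was called without EGME75 replicate 7 (-1.88 and -1.74). ENSRNOT00000089775 was not called without EGME75 replicate 32 either (-1.90).

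The RNAcentral table held rRNA entries that moved in both directions. Of 2757 entries tested, 1041 (37.8%) differed, 546 higher (19.8%) and 495 lower (18%). All EGME75 libraries lay above all controls for 226 (8.2%) and below for 31 (1.12%). Here too scaling moved the split, to 1364 lower of 1857 called with the DESeq2 factors, 1457 of 1974 with DESeq2, 960 of 1423 with library totals, and 261 of 787 with the sum of the 4 tables. With the chip as a block 479 were higher and 192 lower. The median change over all entries was -0.62 under TMM and -1.38 with the DESeq2 factors.

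Of the 235 rRNA entries, 173 were higher and 56 lower, and 95 lay above all controls and 22 below. Over 4 scalings these counts ran from 163 to 173 higher and from 55 to 56 lower. Changes ran from 1.72 to 8.97 (median 3.80) for the higher and from -2.22 to -1.33 (median -1.74) for the lower entries. The split by call itself keeps these ranges apart. As a description of entries chosen by their call, the lower ones summed to 43740 to 140900 whole-library CPM in the controls and 6681 to 49330 at EGME75. The higher ones summed to 4992 to 62160 and 79370 to 571800. The rRNA class as a whole, which uses no call, went from a median of 101800 (49130 to 204600) to 287000 (124300 to 580100) whole-library CPM, a 2.91-fold rise in the mean (permutation test, adjusted p = 0.000165).

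**Figure D5:**
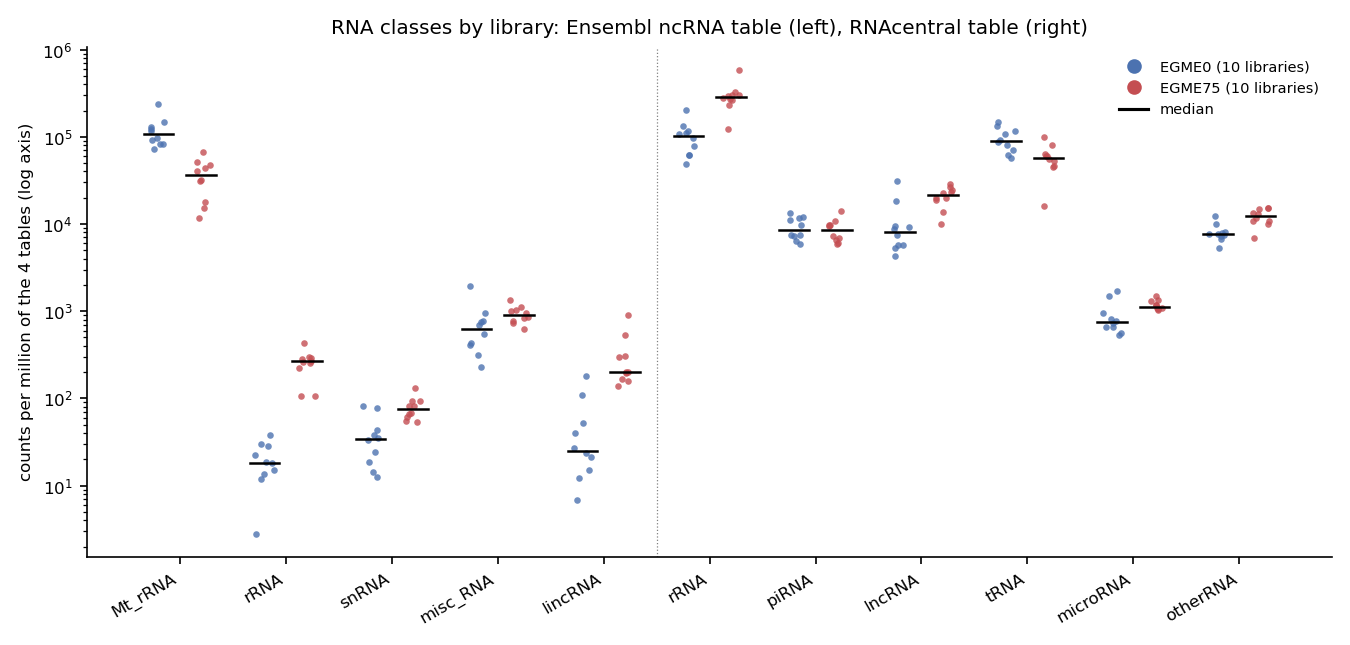
Whole-library CPM (counts-per-million of the sum of the 4 tables; vertical log axis) for 11 RNA classes of the ncRNA table (left) and the RNAcentral table (right); points are libraries, 10 per group, and bars are medians. Mitochondrial rRNA was lower and the other rRNA of the ncRNA table higher at EGME75 with no overlap, while the piRNA medians were 8620 and 8474.

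The piRNA total did not pass the test. It ran from 5900 to 13370 whole-library CPM, with a median of 8620, in the controls and from 5881 to 14140, with a median of 8474, at EGME75. The difference in means was -561 whole-library CPM and did not pass (permutation test, adjusted p = 0.639). As a share of the RNAcentral table alone, the piRNA difference was -2.16 percentage points and passed (permutation test, adjusted p = 0.00495). Within the class 110 of 1401 piRNAs were higher and 266 lower, where 19.8% and 18% of all 2757 entries tested were. The lower calls were near the share over all entries, and the higher calls were below it. The median piRNA change was -0.84 against -0.62 for all entries. With the sum of the 4 tables as library size 98 piRNAs were higher and 76 lower. The named rises were piR-rno-3792797, at 0.771 to 10.7 CPM in the controls and 114 to 664 CPM at EGME75 (6.56 ± 0.84, adjusted p = 7.04e-07), and piR-rno-546140, with 14 summed counts against 1237 (6.62 ± 0.93, adjusted p = 7.04e-07). The named falls were piR-rno-11255 (-2.56 ± 0.73), piR-rno-49249 (-2.37 ± 0.62) and piR-rno-1271 (-2.21 ± 0.61), with adjusted p of 0.00475, 0.00182 and 0.00351.

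Among other classes, long noncoding RNA rose from a mean of 10520 ± 8168 (SD, n = 10) to 20760 ± 5663 (SD, n = 10) whole-library CPM (permutation test, adjusted p = 0.00924). RNAcentral tRNA entries fell from 95690 ± 30200 (SD, n = 10) to 57940 ± 22170 (SD, n = 10; permutation test, adjusted p = 0.00704). The otherRNA class rose from 8040 ± 1910 (SD, n = 10) to 12200 ± 2683 (SD, n = 10; permutation test, adjusted p = 0.0026). As shares of the RNAcentral table alone, neither long noncoding RNA (0.97 percentage points) nor otherRNA (-0.52) passed. The RNAcentral class microRNA had means of 888 ± 397 (SD, n = 10) and 1184 ± 152 (SD, n = 10) and missed the threshold (permutation test, adjusted p = 0.0527), while the separate table of mature miRNAs fell as a share of counts. Without EGME0 replicate 26 or EGME0 replicate 33 the microRNA difference passed (up to 386.5 whole-library CPM, exact permutation test, adjusted p = 0.00369 at the lowest). In that class rno-mir-347 rose from 6 summed counts to 274 (5.81 ± 0.96, adjusted p = 3.06e-06).

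Among entries without a name, URS0000CCE6ED and URS0000B27A6F were at 0 in all controls, with 423 and 442 summed counts at EGME75. They were at least 179.6-fold and 188-fold higher, against a floor of 3 counts over the pooled controls, which covers counting error only. The lowest, URS0000B25AE7 and URS0000B27D08, changed by -4.52 ± 0.95 and -3.91 ± 0.94 (adjusted p = 0.000138 and 0.000821), with 3401 and 206 summed counts in the controls and 121 and 28 at EGME75. Without EGME0 replicate 33 the change of URS0000B27D08 was -2.07, still called.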

How the data were processed

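The authors deposited 4 tables of raw counts of sense-strand reads for 39 libraries, with whole numbers throughout: 405 mature miRNAs, 402 tRNA genes, 1563 Ensembl transcripts and 78572 RNAcentral entries. Per the labels' protocols, total RNA (mirVana kit with DNase treatment) entered the Ion total RNA-seq kit at 10 ng per library. FastQC, Bowtie and DESeq2 are named in the submitters' processing notes; their roles and the handling of reads that fit several features are not given in the sources used here. Rows sharing their counts with another row numbered 45, 213, 755 and 30501, and are uncertain. A read may be counted in several tables.

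The test was edgeR 4.0.16 under R 4.3.3 (limma 3.58.1, with DESeq2 1.42.0 as alternative): TMM factors, filterByExpr by group, robust quasi-likelihood fits over all 39 libraries, contrast EGME75 minus EGME0, Benjamini-Hochberg adjustment within each table, threshold 0.05. Counts of tRNA genes were added up over 49 anticodons as well, 2 rows without one being left out. Tested features held 97.3% (miRNA) to 100% (tRNA) of the counts. Common biological coefficients of variation ran from 0.328 to 0.811. Shares and sums were compared by two-sided permutation of the difference in means (100000 resamples, exact with 9 libraries in a group; numpy 2.4.6, scipy 1.17.1, pandas 2.3.3, figures with matplotlib 3.10.9), adjusted over 9 values; 11 class sums and 3 ratios were added after seeing the data. Arm and rRNA ratios used a prior count of 0.5. A floor of 3 counts stands for a count of 0.

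In simulated data, all of 10 miRNAs changed 4-fold and 20% of 10 changed 2-fold were recovered; for 33 tRNA genes these were 100% and 81.8%, for 17 ncRNA transcripts 82.4% and 11.8%, and for 100 RNAcentral entries 42% and 1%. Features were named by rule: the 10 highest and 10 lowest miRNAs among those called and averaging 10 counts or more over the 20 libraries, 6 and 6 anticodons, 3 and 3 tRNA genes, 2 and 2 ncRNA transcripts with the mitochondrial rRNAs, 3 and 3 named and 2 and 2 unnamed RNAcentral entries, the 5 most abundant miRNAs and anticodons, and list members. The comparison, members and lists were chosen with earlier results of these data known. No gene name could be matched to the Ensembl transcripts, whose IDs are used as deposited. Alternatives tried were other scalings, no filter, the 20 libraries alone, DESeq2, limma-voom, the 13 sequencing chips as a block, the 6 chips that held 1 library of each group, depth as a covariate, identical rows once, and each library left out.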

Additional observations from a re-analysis of the deposited data

Results flagged for a closer look

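Of 168 groups of 10 libraries examined, 39 held a library far from the others by Dixon's criterion, which chance meets in about 1 in 20 groups. The libraries concerned were mostly EGME75 replicates 7 and 24 and EGME0 replicate 33. No explanation was tested.

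EGME75 replicate 7 stood apart in the tRNA share (34.6%, next 52.6%), the RNAcentral share (63.9%, next 42%) and the mitochondrial rRNA share of the ncRNA table (81.1%, next 90.4%). It had 912 whole-library CPM of lincRNA (next 535) and 580100 whole-library CPM of RNAcentral rRNA (next 326500). On the log2 CPM scale it was low in SerGCT (14.44), LeuTAA (8.67), LeuCAA (9.66), IleAAT (10.95) and chr1.trna16829-LeuTAA (8.17), and high in miR-24-3p (14.06).

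EGME75 replicate 24, with the fewest miRNA counts, was at the log2 CPM that stands for a count of 0, 7.39, in miR-221-3p, miR-200b-3p, miR-34c-3p, miR-20a-5p, miR-93-5p and miR-19b-3p. It was at -1.61, the value for 0 in the tRNA table, in chr16.trna1087-GluTTC and chr4.trna7721-CysGCA.

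EGME0 replicate 33 was low in log2 CPM of miR-221-3p (7.39), miR-17-5p (7.39), miR-20a-5p (12.50), miR-93-5p (12.24), chr16.trna1087-GluTTC (-1.61), chr10.trna10836-ThrAGT (1.48) and piR-rno-49249 (-0.53). It was high in miR-429 (11.93) and miR-204-5p (14.05).

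EGME75 replicate 39 had the highest miRNA share (0.197%, next 0.0636%) and 132 whole-library CPM of snRNA (next 94.2). EGME0 replicate 25 had an ncRNA share of 23.9% (next 14.9%) and 237800 whole-library CPM of mitochondrial rRNA (next 147800). EGME0 replicate 26 had 1921 whole-library CPM of misc_RNA (next 945). In log2 CPM, EGME75 replicate 40 was low in miR-672-5p (7.39), EGME75 replicate 23 was high in miR-106b-3p (11.12) and MetCAT (18.30), and EGME75 replicate 16 was low in URS0000B27A6F (-0.53). EGME0 replicate 17 was high in ENSRNOT00000092862 and ENSRNOT00000092884 (3.73 in each).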

How the results depend on the processing

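Pairing by replicate number was not possible because the groups have no number in common, and libraries were paired by chip instead. On the 6 chips with both groups, with the chip as a block, 23 miRNAs, 121 tRNA genes, 56 ncRNA transcripts and 523 RNAcentral entries were called. With identical rows kept once 122 tRNA genes were called. Without a filter the calls were 227 ncRNA transcripts and 3316 RNAcentral entries, and with the 20 libraries alone 55 and 603, fewer features being tested. RNAcentral calls were 1857 with the DESeq2 factors, 1974 with DESeq2 and 671 with every chip as a block. The cause was not tested.

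With the sum of the 4 tables as library size miR-145-5p turned to -0.1159 and miR-203a-3p to -0.002852. With library totals alone ENSRNOT00000040038, ENSRNOT00000077967 and ENSRNOT00000089775 turned to 0.01462, 0.8002 and 0.9474.

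Within the 6 chip pairs, where the smallest p that sign flips allow is 0.03125, these differences kept their direction and missed the threshold (lowest adjusted p = 0.05625). They were -0.136, -6.451 and 13.54 percentage points for the miRNA, ncRNA and RNAcentral shares, -3.792 for mitochondrial rRNA, -14.67 for germ cell and 5.366 for other cell type miRNAs. Detected miRNAs differed by 7.942. In whole-library CPM, Mt_rRNA differed by -65390, ncRNA-table rRNA by 194.3, snRNA by 46.59, lincRNA by 195.5, RNAcentral rRNA by 139500, lncRNA by 9175, tRNA by -16000 and otherRNA by 3088. The miR-34c ratio differed by -1.089 and the rRNA ratio by 5.022.

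The tRNA share passed as a log2 ratio (-0.5762) and reversed to 9.712 with the RNAcentral table left out of the sum. Differences in medians passed for misc_RNA (278.4) and microRNA (379.0). As a share of its own table, misc_RNA (2.656) and piRNA (-2.157) passed, lncRNA (0.9651) did not, and microRNA (-0.07793) and otherRNA (-0.522) reversed.

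Leaving out 1 library at a time, the tRNA share ran from -10.97 to -6.514 and passed without EGME0 replicate 25, 26 or 33 or EGME75 replicate 16 or 23. The Shannon index ran from 0.08947 to 0.1322 and passed without EGME0 replicate 9, 26 or 33 or EGME75 replicate 7 or 23. The misc_RNA difference ran from 172.1 to 360.1, microRNA from 257.2 to 386.5 and the miR-34b ratio from -1.201 to -0.6329. Of the named features called, 28 of 35 miRNAs, 14 of 16 anticodons, 6 of 6 tRNA genes, 4 of 6 ncRNA transcripts and 10 of 10 RNAcentral entries kept the call without any 1 library. Under every other alternative, 8 of these miRNAs, 12 anticodons, 6 tRNA genes, 3 ncRNA transcripts and 8 RNAcentral entries kept it. The low miRNA depth of EGME75 limits what can be said of miRNAs at 0.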
